A study of Homo sapiens with 12 samples.

Results

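The genes described here make cholesterol from acetyl-CoA, sense it, supply the fatty acids that accompany it and move it in and out of the cell. They were taken as a list of 32 symbols, each matched to the gene name printed beside the probes of the array, out of 30238 gene names in all, where a probe without a gene name counts by its own ID. All 32 were on the array, with 53 probes between them. Where a gene had several probes, the values are those of its brightest probe, the one with the highest mean intensity over both channels of the 12 arrays.

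Total RNA of Rh30, a human alveolar rhabdomyosarcoma cell line that carries the PAX3-FKHR (PAX3-FOXO1) fusion gene, was compared on two-colour arrays in a study of genes that depend on the fusion protein. WT was the untransfected Rh30 line, grown without puromycin. CON was a clone of Rh30 that carried a non-targeting shRNA, and KD1 was a clone that carried an shRNA against PAX3-FKHR, both in pSUPER.retro.puro and both grown in 1 µg/ml puromycin. All cultures were plated in DMEM with serum and grown for 24 h before extraction. KD1 vs. CON, KD1 vs. WT and WT vs. CON were each measured in 2 biological replicates, and each replicate on 2 arrays with the dyes exchanged. CON and KD1 were each 1 clone, so that a property of the clone and an effect of its shRNA cannot be told apart, and WT differed from both also in puromycin.

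Between 64.4% and 67.8% of the gene probes were well above background in Cy5, and between 71.1% and 73.6% in Cy3, and no gene spot was saturated. All 7 muscle lineage markers examined, among them MYOD1, MYOG and DES, were well above background on all 8 arrays of each culture, and so was NOS1. TFAP2B, another gene of fusion-positive tumours, stayed at background on all of them. Among genes of other cell types PTPRC was at background on every array, while CD3E and PECAM1 were well above background throughout. Of the epithelial genes KRT19 was well above background on 7 of 8 CON arrays and on all 8 of WT and of KD1, EPCAM on 4 of 8 WT arrays alone, and CDH1 on 2 WT arrays and 1 KD1 array. The part of other cell types in the results was not tested. In KD1 vs. CON, PAX3 gave log2 ratios of -0.39 and -0.46 (limma adjusted p = 0.327) and FOXO1 at -0.26 and -0.58 (limma adjusted p = 0.433). The probes are named for PAX3 and FOXO1, not for the fusion transcript. CPT1A, the enzyme of fatty acid import into mitochondria, was well above background on 7 of 8 CON arrays, 8 of 8 WT arrays and none of the KD1 arrays.

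Cholesterol synthesis begins with acetyl-CoA, runs through mevalonate and the isoprenoid farnesyl diphosphate to squalene, and then closes and trims the sterol rings. Its enzymes are switched on together by SREBP-2, made from SREBF2, while SREBP-1, made from SREBF1, acts more on fatty acid genes. Both precursors are held in the endoplasmic reticulum by INSIG1 and INSIG2 through the sterol sensor SCAP when sterols are plentiful, and are released for cleavage when sterols run low.

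Promoters are shown for the transcription factor gene SREBF2 and for EBP and NSDHL, the enzyme genes that differed most between KD1 and CON. They were taken from RefSeq (GRCh38.p14), from 250 bases before to 50 bases after the annotated start, and 27 of the 32 genes had an entry, SC5DL under its present symbol SC5D. Each was searched on both strands for TCACNCCAC, a form of the sterol regulatory element, and for CCAAT, the box bound by NF-Y. The positions are chr22:41832855-41833154 for SREBF2, chrX:48521558-48521857 for EBP and chrX:152830813-152831112 for NSDHL, all on the plus strand. Capitals mark TCACNCCAC in SREBF2 and CCAAT, or ATTGG where it lies on the other strand, in EBP and NSDHL.
SREBF2: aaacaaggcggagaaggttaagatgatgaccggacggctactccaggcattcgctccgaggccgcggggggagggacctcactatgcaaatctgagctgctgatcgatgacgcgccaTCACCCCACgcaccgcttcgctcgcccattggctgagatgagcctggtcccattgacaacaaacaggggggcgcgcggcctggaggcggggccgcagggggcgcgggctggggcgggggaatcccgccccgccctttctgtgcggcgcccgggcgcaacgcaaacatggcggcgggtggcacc
EBP: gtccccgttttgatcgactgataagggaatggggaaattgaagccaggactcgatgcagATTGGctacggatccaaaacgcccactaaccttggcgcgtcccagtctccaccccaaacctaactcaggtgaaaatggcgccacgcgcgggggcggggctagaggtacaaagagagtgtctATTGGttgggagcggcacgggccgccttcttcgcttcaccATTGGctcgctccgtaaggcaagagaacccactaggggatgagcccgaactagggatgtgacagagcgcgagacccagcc
NSDHL: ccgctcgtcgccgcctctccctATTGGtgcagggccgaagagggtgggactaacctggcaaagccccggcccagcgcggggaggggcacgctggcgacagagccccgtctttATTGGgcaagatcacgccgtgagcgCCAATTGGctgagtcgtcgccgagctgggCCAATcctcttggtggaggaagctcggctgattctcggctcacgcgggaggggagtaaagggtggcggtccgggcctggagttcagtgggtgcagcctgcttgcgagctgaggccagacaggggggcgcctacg

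SREBF2 was the only one of the 27 promoters with TCACNCCAC, which lay 133 bases before its start, against 313 of 27305 promoters (1.15%) over the genome. CCAAT was in 17 of the 27 (63.0%), against 9747 of 27305 (35.7%). It occurred 5 times in the NSDHL promoter, where 2 copies on opposite strands overlap, and 3 times in that of EBP. These are matches of letters, and no factor's binding was measured.

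In KD1 vs. CON, where both cultures were clones grown in puromycin, the median of the pathway was close to that of all genes. EBP, the isomerase that moves the double bond within the sterol ring, was 3.76-fold lower in KD1. NSDHL, a dehydrogenase of the steps that remove the methyl groups at carbon 4, was 1.86-fold higher without passing the test. Of the 28 members above the signal limit, the median log2 ratio was 0.06, beside -0.02 over the 15766 genes tested. With median centring in place of lowess both were lower, at -0.18 and -0.24. In 23 of the 28 both replicates lay within 0.5 of 0 (82.1%, against 66.3% of all genes). A probe was above the limit where, on each array of a comparison, Cy3 or Cy5 exceeded what 99% of the negative controls reached, and the test was limma's over the whole array with Benjamini-Hochberg adjustment at 0.05. One member, EBP, passed the test, lower in KD1, where 1.9% of all genes passed in either direction, and its call was lost under several other settings given below with its values. An unadjusted p under 0.05 in limma's test was found for 2 of the 28 (7.1%, against 17.3% of all genes).

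In KD1 vs. WT, EBP was again lower in KD1 and INSIG1 was far lower, and no member passed the test in the other direction. These were 2 of 30 members above the limit, beside 1.16% of 17855 genes. INSIG1 came above the limit through WT alone, the culture in which it was high, so that its call supports no count of members, and EBP was the other. An unadjusted p under 0.05 in limma's test was found for 9 of the 30, INSIG1 included. That was a larger share than the 17.3% of all genes. The median of the members was 0.20, beside 0.00 over all genes, but it came from replicates of opposite sign, -0.26 in replicate 1 and 0.71 in replicate 2. In WT vs. CON none of the 29 members above the limit passed limma's test at an adjusted 0.05, beside 1.49% of 19138 genes, and 4 (13.8%) had an unadjusted p under 0.05, as did 16.6% of all genes. There too the replicates differed, with a median of 0.22 in replicate 1 and -0.59 in replicate 2.

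**Figure D1:**
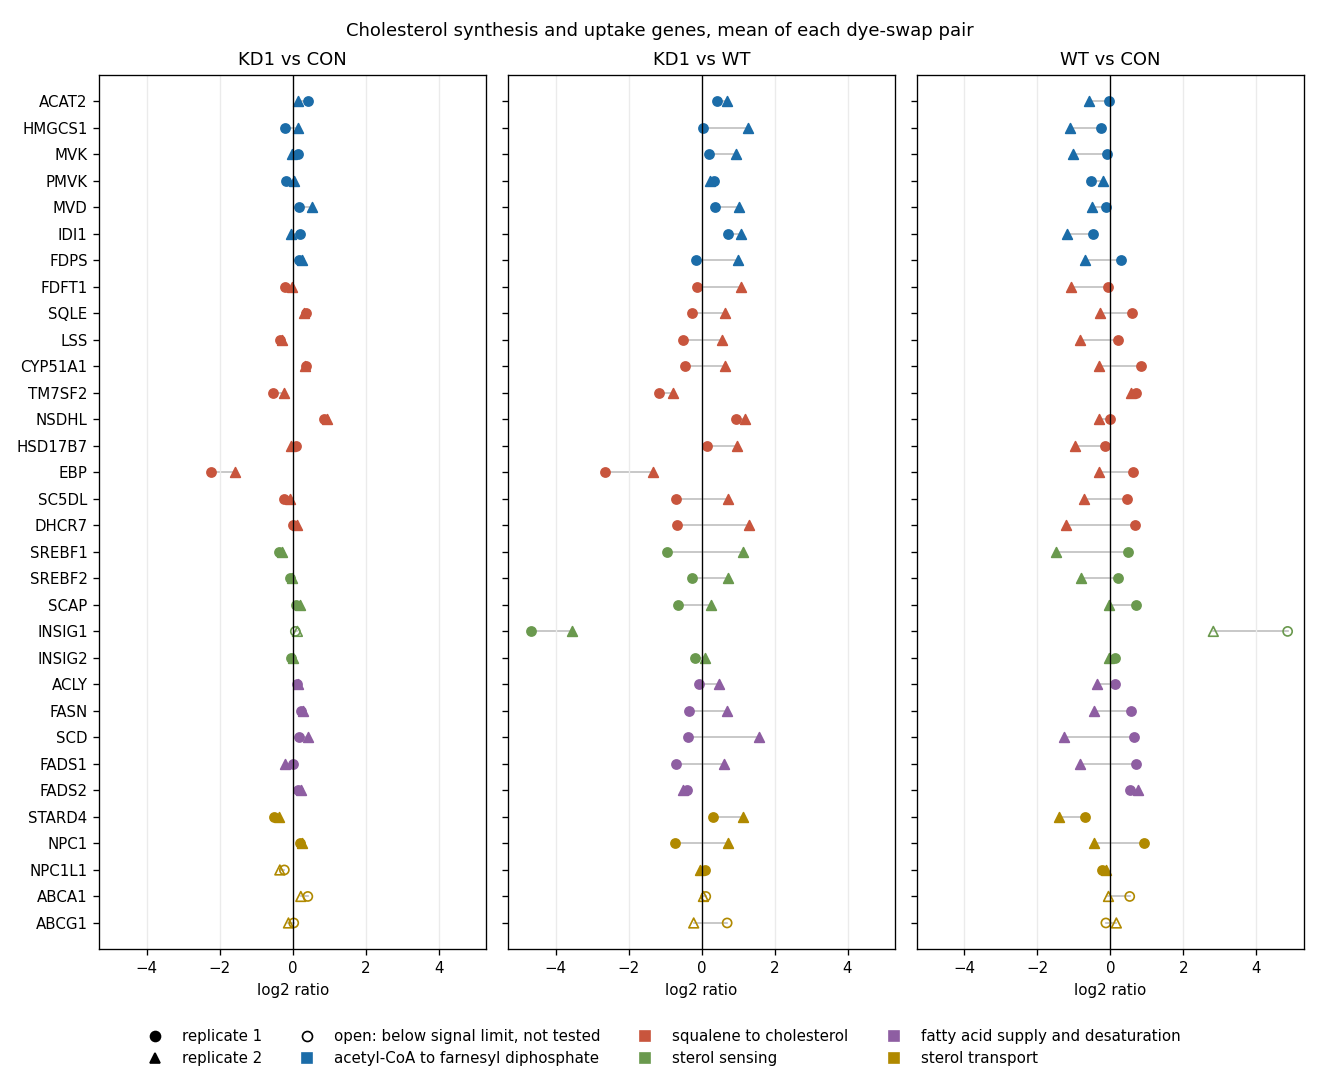
Log2 ratio of the brightest probe of each of the 32 genes in KD1 vs. CON, KD1 vs. WT and WT vs. CON, with replicate 1 as circles and replicate 2 as triangles, each the mean of a dye-swap pair. In KD1 vs. CON the replicates lie close together and near 0 for all but a few genes, and in both comparisons with WT they lie apart, with replicate 2 on the side of a lower WT for most genes.

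EBP was lower in KD1 than in both other cultures. The only probe with its gene name (A_23_P171077, NCBI36 chrX:48271886-48271945) read -2.40, -2.07, -1.79 and -1.38 on the 4 arrays of KD1 vs. CON. In KD1 vs. WT it read -2.75, -2.54, -1.72 and -0.95. All 8 arrays were below 0, whichever dye KD1 carried. The mean log2 ratio was -1.91 ± 0.46 (SD, n = 2) against CON (limma adjusted p = 0.0361) and -1.99 ± 0.93 (SD, n = 2) against WT (limma adjusted p = 0.0474), a 3.97-fold difference. WT and CON did not separate, at 0.61 and -0.31 in the replicates of WT vs. CON (limma adjusted p = 0.869). The mean log2 intensity of each extract over its 4 arrays was 11.96 and 12.36 in KD1, 14.17 and 13.80 in CON, and 14.75 and 13.62 in WT, so that both KD1 extracts lay below the other 4. EBP was the only member that met the fold criteria, at least 2-fold in both KD1 comparisons in 1 direction on all 8 arrays, which 1.52% of 15727 genes met. Both calls lay near the threshold and were lost with normexp background correction (adjusted p = 0.103 and 0.135), without the replicate block (0.0599 and 0.0743), without a filter on dim probes (0.0818 and 0.0890) and with the residual degrees of freedom that the fit itself gives (0.0831 and 0.0967), at much the same ratios.

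Most genes around EBP did not share its level. Over the 50 nearest expressed genes on chromosome X the median log2 ratio was 0.22 against CON and 0.19 against WT, and none of the 50 was as low as EBP in either comparison. The nearest probe, which has no gene name and lies at -4.75 kb from that of EBP, came close to it, with -1.68 against CON and -1.91 against WT. Whether that probe lies within EBP itself was not worked out. CCDC120, at 542 kb, read -1.39 and -1.44 in the same comparisons. The adjoining genes PORCN and TBC1D25 read 1.08 and 0.44 in KD1 vs. CON.

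NSDHL was higher in KD1 on every one of the 8 arrays. Its probe (NCBI36 chrX:151778050-151778109) read 0.89, 0.84, 0.94 and 0.92 against CON, and 1.02, 0.88, 1.33 and 1.07 against WT. The means were 0.90 ± 0.04 (SD, n = 2; limma adjusted p = 0.0769) and 1.08 ± 0.18 (SD, n = 2; limma adjusted p = 0.0631), so that close replicates did not carry it past the threshold. WT vs. CON gave 0.00 and -0.31. Over its 50 nearest expressed genes the median was 0.18 against CON and 0.28 against WT, much as around EBP. Over the nearest 10 it was 0.68 and 0.41, against 0.23 and 0.31 for the nearest 10 of EBP, and CETN2, at -31.2 kb, read 0.80 in KD1 vs. CON. The part of this neighbourhood in the NSDHL values was not tested.

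**Figure D2:**
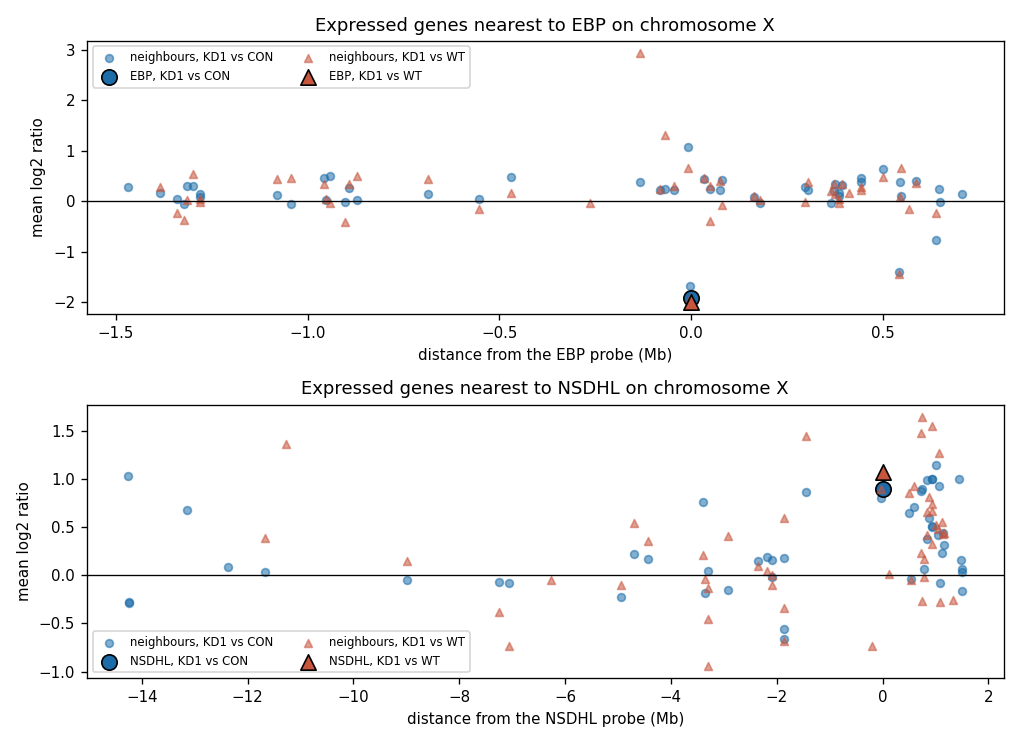
Mean log2 ratio of the expressed genes nearest to EBP and to NSDHL on chromosome X against the distance from each gene's probe in Mb, for KD1 vs. CON (circles) and KD1 vs. WT (triangles), with EBP and NSDHL as large symbols. EBP lies below all of its 50 neighbours, with one unnamed probe close to it, and 8 neighbours lie above NSDHL against CON and 6 against WT.

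INSIG1, which retains the SREBP-SCAP complex in the endoplasmic reticulum and is itself a target of SREBP, was detected in WT alone. Its probe (A_23_P22027, NCBI36 chr7:154731004-154731063) was well above background on 8 of 8 WT arrays and on none of the 8 arrays of CON or of KD1. The mean log2 intensity was 6.55 and 5.08 in the WT extracts, against 1.60 and 1.95 in CON and 1.61 and 1.92 in KD1. The clones therefore have only an upper limit, the lowest signal that counted as well above background on each array. Against that limit the WT level of INSIG1 exceeded that of KD1 at least 3.89-fold over both replicates, by 5.45 in replicate 1 and 2.78 in replicate 2. It exceeded that of CON at least 3.46-fold, by 6.42 and only 1.86 in the replicates. The fit tested not these bounds but the measured KD1 vs. WT ratio of -4.11, in which KD1 was at background (limma adjusted p = 0.00689, and 0.0497 with the degrees of freedom the fit gives). The WT vs. CON ratio was below the signal limit in both channels of at least 1 array and was tested only without the filter (adjusted p = 0.0258). Under normexp, which adds an offset to every signal, the KD1 vs. WT difference was -0.54 and did not pass (adjusted p = 0.209). With median centring the difference was -1.71 and passed, and with the stricter filter on dim probes INSIG1 was not called. The median of its 44 expressed neighbours in KD1 vs. WT was 0.06.

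**Figure D3:**
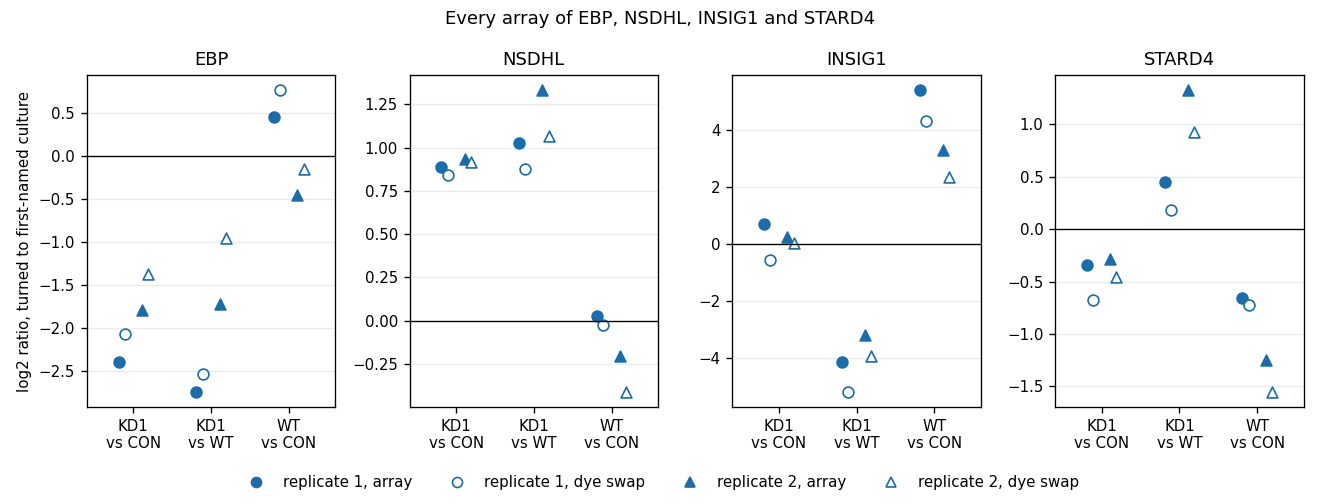
Log2 ratio of EBP, NSDHL, INSIG1 and STARD4 on each of the 12 arrays, turned to the first-named culture, with circles for replicate 1, triangles for replicate 2 and open symbols for the dye swap; each panel has its own scale. EBP is below 0 and NSDHL above 0 on all 8 KD1 arrays, INSIG1 departs from 0 where WT is one of the cultures, and STARD4 is lower in WT than in CON on all 4 arrays.

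The other genes of sterol sensing gave ratios near 0 between the clones, and none passed the test in any comparison. SREBF1 read -0.38 and -0.31 in KD1 vs. CON (mean -0.34 ± 0.05, SD, n = 2; limma adjusted p = 0.792). SREBF2 read -0.08 and -0.01 (mean -0.05 ± 0.05, SD, n = 2; limma adjusted p = 0.966). SCAP and INSIG2 lay between -0.06 and 0.21. Against WT, SREBF1 turned from -0.96 in replicate 1 to 1.12 in replicate 2 (mean 0.08 ± 1.47, SD, n = 2; limma adjusted p = 0.954). In WT vs. CON it went from 0.48 to -1.50. SREBF2 turned the same way by less, at -0.26 and 0.72 in KD1 vs. WT and 0.22 and -0.82 in WT vs. CON.

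The turn between replicates ran through most of the pathway and appeared in the comparisons that held WT. A ratio cannot tell a shift of the WT extract from a shift of both clone extracts together. Each replicate holds 1 WT extract that was read against CON on 2 arrays and against KD1 on 2 others, so its level against the mean of both clones could be formed for each replicate from the 28 members above the limit in every comparison. In replicate 1 the median of the members was 0.30, with WT lower than the clones in 9 of 28. In replicate 2 it was -0.73, with WT lower in 25 of 28. Over 15722 genes the medians were -0.05 and 0.01, with WT lower in 54.2% and 48.6%, against 32.1% and 89.3% of the members. At least 1.5-fold lower in WT than in each clone were none of the 28 members in replicate 1 and 14 in replicate 2, where 5.32% and 4.69% of all genes were. At least 1.5-fold higher were 6 members in replicate 1 and none in replicate 2, where 7.91% and 3.07% of all genes were. This way of counting was chosen after the values were seen, and with 1 WT extract a replicate the difference between the extracts has no error of its own.

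In replicate 1, WT was lower on all 4 of its arrays for 5 of the 28 members (17.9%, against 34.3% of all genes). In replicate 2, WT was lower on all 4 of its arrays for 23 of the 28 members (82.1%, against 19.5% of all genes). These 4 arrays were repeated readings of the same RNA extract. Its WT vs. CON arrays lay on slide 2 and its KD1 vs. WT arrays on slide 3. Both replicates of WT vs. CON shared slide 2. In both KD1 comparisons replicate 1 lay on slide 1 and replicate 2 on slide 3. Replicate and slide cannot be told apart there. The comparisons also closed, since KD1 vs. CON less KD1 vs. WT and WT vs. CON left at most 0.20 in replicate 1 and 0.12 in replicate 2 for any of the 28. Closure shows only that readings of the same extracts fitted together. What set the replicates apart was not tested.

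**Figure D4:**
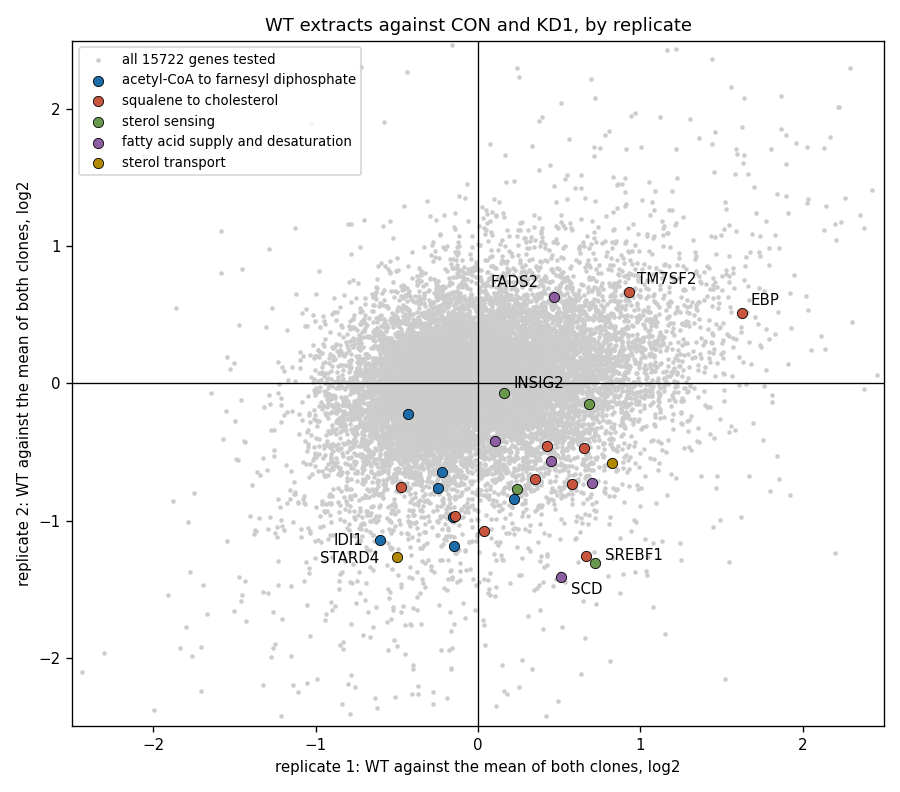
Log2 level of WT against the mean of CON and KD1 in replicate 2 against replicate 1, for 28 members coloured by role and all 15722 genes tested in grey; both axes are cut at 2.5 on either side. Most members lie below 0 in replicate 2, with SCD and SREBF1 lowest among those above 0 in replicate 1, while EBP, TM7SF2 and FADS2 lie above 0 in both.

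The 7 enzymes from acetyl-CoA to farnesyl diphosphate differed little between the clones. ACAT2, HMGCS1, MVK, PMVK, MVD, IDI1 and FDPS had means between -0.07 and 0.35 in KD1 vs. CON, and none passed the test in any comparison. WT was below the clones in 6 of 7 in replicate 1 and in 7 of 7 in replicate 2, with medians of -0.22 and -0.84. Over all genes WT was lower in 54.2% and 48.6%. HMGCS1, which makes HMG-CoA, read -0.22 and 0.14 in KD1 vs. CON (mean -0.04 ± 0.25, SD, n = 2; limma adjusted p = 0.975). Against WT it read 0.05 and 1.27 (mean 0.66 ± 0.87, SD, n = 2; limma adjusted p = 0.322), and in WT vs. CON -0.25 and -1.10 (mean -0.67 ± 0.60, SD, n = 2; limma adjusted p = 0.322). Its dimmer probe was likewise higher in replicate 2, at 0.40 and 1.49 in KD1 vs. WT. IDI1, the isomerase of the isoprenoid units, was lower in WT in both replicates, at -0.48 and -1.20 against CON, while KD1 vs. WT gave 0.72 and 1.09.

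Between squalene and cholesterol the 10 enzymes were mixed. Beside EBP and NSDHL, the means in KD1 vs. CON lay between -0.38 for TM7SF2 and 0.35 for CYP51A1. SQLE, the epoxidase that makes the substrate of ring closure, read 0.36 and 0.31 in KD1 vs. CON (mean 0.33 ± 0.04, SD, n = 2; limma adjusted p = 0.590). It read -0.26 and 0.63 in KD1 vs. WT and 0.59 and -0.28 in WT vs. CON, with adjusted p of 0.776 and 0.833 by limma. WT was below the clones in 2 of the 10 in replicate 1 and in 8 of 10 in replicate 2, against 54.2% and 48.6% of all genes. For all 10 the second WT extract stood lower against the clones than the first, as it did for 47.0% of all genes. DHCR7, the last reductase of the pathway, had one of the widest turns, from -0.67 to 1.31 in KD1 vs. WT. TM7SF2, a sterol reductase, went the other way in both replicates: -1.17 and -0.78 in KD1 vs. WT, and 0.69 and 0.55 in WT vs. CON (limma adjusted p = 0.0883 and 0.213). Its second probe read -1.02 and -0.58 in KD1 vs. WT. LSS, the cyclase, had 4 probes that did not agree. Its 2 brighter probes read between -0.34 and -0.26 in KD1 vs. CON, and its 2 dimmer ones between 0.26 and 1.42. SC5DL, a desaturase, had 3 probes that also differed. In WT vs. CON the brightest read 0.47 and -0.73 and the next 0.49 and -0.70. The dimmest read 1.20 and 0.89 (limma adjusted p = 0.0649).

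The fatty acid genes ACLY, FASN, SCD, FADS1 and FADS2 had both replicates within 0.5 of 0 in KD1 vs. CON. FASN, the fatty acid synthase, read 0.23 and 0.28 (mean 0.25 ± 0.04, SD, n = 2; limma adjusted p = 0.730). It turned from -0.33 to 0.69 in KD1 vs. WT and from 0.56 to -0.45 in WT vs. CON. SCD, the desaturase that makes oleate, turned widely too, from 0.64 to -1.27 in WT vs. CON and from -0.38 to 1.56 in KD1 vs. WT (mean 0.59 ± 1.37, SD, n = 2; limma adjusted p = 0.562). Its other 3 probes were also at least 1.48 in replicate 2 of KD1 vs. WT and at most 0.16 in replicate 1. FADS2, a desaturase of polyunsaturated fatty acids, did not turn at its brightest probe: WT exceeded CON by 0.52 and 0.75. Its dimmer probe did not share this, at -0.04 and -0.17 in WT vs. CON (limma adjusted p = 0.851).

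Among the transport genes STARD4, a cytosolic sterol carrier, was lowest in WT in both replicates. WT vs. CON read -0.65, -0.73, -1.24 and -1.55 on the 4 arrays, with a mean of -1.04 ± 0.50 (SD, n = 2; limma adjusted p = 0.108), a 2.06-fold difference that missed the threshold. In KD1 vs. WT it read 0.32 and 1.13 (mean 0.72 ± 0.58, SD, n = 2; limma adjusted p = 0.217), and in KD1 vs. CON -0.51 and -0.37 (limma adjusted p = 0.428). NPC1, which exports cholesterol from lysosomes, turned from -0.73 to 0.71 in KD1 vs. WT. NPC1L1, the intestinal sterol importer, was dim and lay between -0.36 and 0.08 in every replicate. ABCA1, a cholesterol exporter, was well above background on 0 of 8 arrays of each culture. ABCG1, another exporter, was well above background on 5 of 8 CON, 4 of 8 WT and 4 of 8 KD1 arrays. Neither exporter was tested.

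Of 26 further genes of sterol and lipid handling, 25 were above the limit in each comparison. None passed in KD1 vs. CON or KD1 vs. WT, where 5 (20.0%) and 2 (8.0%) had an unadjusted p under 0.05 in limma's test, as did 17.3% of all genes in each. One passed in WT vs. CON, SOAT1, which esterifies cholesterol for storage, at 1.52 and 0.99 (mean 1.26 ± 0.38, SD, n = 2; limma adjusted p = 0.0491). The call was lost without the filter on dim probes (adjusted p = 0.0962), without the replicate block (0.0702), with normexp (0.130) and with the degrees of freedom the fit gives (0.0609). It was also lost with the stricter filter (0.0506) and with the mean over all probes, where the ratio fell to 0.71 (limma adjusted p = 0.145). The 2 dimmer probes of SOAT1 did not pass (0.218 and 0.516). The turn between replicates was present here as well, with medians of WT against both clones of 0.31 and -0.36, and WT lower in 8 and then 20 of 25. SC4MOL, the methyl sterol oxidase that acts before NSDHL, read -0.07 and 1.55 in KD1 vs. WT.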

How the data were processed

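The 12 two-colour Agilent arrays were read with Agilent Feature Extraction 10.5.1.1, per the submitters' processing notes. The authors deposited scanner files with mean, background-subtracted and processed intensity per channel, and a log10 ratio. The processed intensity was background-subtracted and dye-normalized by that program. The authors also deposited a series table of log2 ratios of the same arrays, already turned on the dye swaps, with column medians of 0. It was used as an alternative. Probe positions are those of the scanner files (NCBI36).

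Outlier spots (95 to 188 an array) were dropped, none of them a member's. The log2 of red over green processed intensity was turned to the first-named culture, spots of a probe were averaged, and the 2 arrays of a dye-swap pair made 1 replicate value. The 6 replicate values were fitted in R 4.3.3 with limma 3.58.1 (lmFit, eBayes), 1 coefficient for each comparison, with residual degrees of freedom set by hand to 2, since 3 comparisons rest on 6 extracts, in place of those the fit gives. The latter were tried as an alternative chosen after seeing the data. Both extracts of a ratio share a replicate number, so the replicate was blocked by the array itself. Python 3.11.15 was used for summaries. The fit was tested on simulated data. The small number of arrays limits the precision. The p-values rest on 1 estimate of spread for each probe, shared by the 3 comparisons, between 2 cultures each of WT, CON and KD1. Those of KD1 vs. CON therefore also carry the spread of the comparisons with WT. SREBF1 in KD1 vs. CON had a standard error of 0.47 in the fit, beside an SD of 0.05 between its replicates. CON and KD1 were each 1 clone, so the p-values do not measure the spread between clones.

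The members and lists were chosen with earlier results of these data known. Values were given in full for members past the threshold, members with a mean of at least 1 on the log2 scale and both replicates in 1 direction, and HMGCS1, SQLE, INSIG1, SREBF1, SREBF2, FASN, SCD, ABCA1 and ABCG1. Other single members and neighbours were named after their values were seen. Alternatives were normexp (offset 50) with loess, median centring, the series table, separate channels, other filters, other fits, the mean over probes and single replicates.

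One gene of the wider list is not reported here by name.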

Additional observations from a re-analysis of the deposited data

How the results depend on the processing

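The replicate block is part of every ratio, since both extracts on an array share a replicate number. Without the replicate block, from separate channels averaged to 6 extracts, the members called numbered 0, 1 and 0 (KD1 vs. CON, KD1 vs. WT, WT vs. CON), against 1, 2 and 0. Normexp with loess gave 0, 0 and 0 in the same order, and called 26, 1 and 2 probes over the whole array. With no filter on dim probes the counts were 0, 1 and 1. The stricter filter and the mean over probes each left 1 member in KD1 vs. WT, EBP with the first and INSIG1 with the second. Median centring called 2 in WT vs. CON, and a dye effect for each slide called 2, 4 and 2 in the 3 comparisons. The residual degrees of freedom that the fit gives, an alternative chosen after seeing the data, left 0, 1 and 0, with INSIG1 the one called. At 1.5-fold, 2 members met the fold criteria, EBP and NSDHL. The median of the members in KD1 vs. CON was -0.18 with median centring, and between 0.0658 and 0.0894 with 1 replicate left out. With 1 replicate left out it lay between -0.26 and 0.71 for KD1 vs. WT, and for WT vs. CON between -0.59 and 0.22. The number called cannot be had from 1 replicate, which leaves no test.

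NSDHL passed with the dye effect for each slide (adjusted p = 0.0131 and 0.00853 in the KD1 comparisons), and STARD4 did in WT vs. CON (adjusted p = 0.0394). So did TM7SF2 in KD1 vs. WT (limma adjusted p = 0.0140) and FADS2 in WT vs. CON (limma adjusted p = 0.0448). With median centring NSDHL passed in KD1 vs. WT (adjusted p = 0.0251). STARD4 and IDI1 then passed in WT vs. CON (limma adjusted p = 0.00977 and 0.0376). EBP and INSIG1 lost calls as given with their values. EBP in KD1 vs. WT missed the threshold with the mean over probes (adjusted p = 0.0540). Signs turned for values near 0: HMGCS1 in KD1 vs. CON without the replicate block (0.0579), SREBF2 in KD1 vs. CON with the mean over probes (0.0716), and in WT vs. CON, with median centring, SQLE (-0.0665), EBP (-0.12) and FASN (-0.12). The causes were not tested. Of the 335 values of named members, 315 kept their direction and side of the threshold, or, with 1 replicate, moved by no more than the spread between replicates. Signal over background limits INSIG1 in the clones, ABCA1 and ABCG1.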
